A study of Arabidopsis thaliana with 60 samples.

Results

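Leaves that expressed the coiled-coil domain of a barley immune receptor (MLACC) were compared with leaves that expressed a fluorescent protein alone (mYFP), in wild-type Arabidopsis thaliana (Col-0) 4 h after induction. The comparison rested on 6 of the 60 libraries of the series, 3 of MLACC and 3 of mYFP, and covered all 19654 genes that passed the filter on low counts, of 32678 in the table. The MLACC line carried a fusion of the coiled-coil domain of barley MLA to monomeric YFP under a dexamethasone-inducible promoter, and the control line, DEXp:mYFP, carried mYFP under the same promoter. Both lines were otherwise wild type, 4 weeks old, and were infiltrated by syringe with 1 µM dexamethasone, so that inducer and wounding were common to both. A sample was made of 6 discs, each cut from another plant, and each group had 3 biological replicates. Each transgene was represented by a single homozygous line, so that effects of its insertion site cannot be told apart from those of the protein. The transgenes themselves are not among the genes counted, and their induction was not analysed here.

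MLA is an intracellular receptor of the nucleotide-binding, leucine-rich repeat class (NLR). Plants use such receptors to sense pathogen effectors inside the cell. On activation, coiled-coil NLRs assemble at the plasma membrane, calcium enters the cell, and defence hormones, reactive oxygen and often local cell death follow. Expression of the coiled-coil domain alone can set off this response without a pathogen. In this background, salicylic acid (SA), jasmonate (JA) and ethylene are the principal defence hormones, WRKY proteins are a major group of defence transcription factors, and camalexin and indole glucosinolates are antimicrobial products derived from tryptophan.

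The 6 libraries held 18.2 to 23 M counts assigned to genes, and levels are given as counts scaled to library size (CPM), in the order of replicates 1, 2 and 3. The leaf identity of the samples was clear in both lines. The 41 light-harvesting and photosystem genes summed to 53913 to 101820 CPM in MLACC leaves and to 150960 to 173520 CPM in mYFP leaves. The 10 most abundant genes took 5.30% to 7.02% of the counts in MLACC leaves and 11% to 11.3% in mYFP leaves. At 0 h the lines differed in 1 gene by the edgeR test used throughout, the 5.8S rRNA AT3G41979 (log2FC -3.64 ± 0.46 SE), in 399 genes at an unadjusted p below 0.05, and in 3 genes by DESeq2. Of the MLACC libraries at 4 h, replicate 1 stood apart. Its median absolute log2 difference from replicates 2 and 3 was 0.48 and 0.50, against 0.21 between replicates 2 and 3 and 0.20 to 0.22 among the mYFP libraries. In mYFP leaves replicate 3 stood apart in a smaller set of genes. Both libraries were kept. Where leaving out a library at 4 h ended a call or moved a called, fitted fold change by more than 1.5 times, this is stated beside the result for the genes named.

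Large parts of the leaf transcriptome differed between the lines at 4 h. A gene was called, and is said to have risen or fallen, at a false discovery rate (FDR, Benjamini-Hochberg over all genes tested, edgeR quasi-likelihood F test) below 0.01 and a log2 fold change (log2FC, MLACC over mYFP) beyond 1 in size. By this rule 4209 genes (21.4%) rose and 3456 genes (17.6%) fell. A gene said not to have passed the test missed the FDR limit, the size limit or both. The median log2FC over all genes tested was 0.02. In 14100 genes (71.7%) the 3 MLACC libraries lay entirely above or entirely below the 3 mYFP libraries. The count of genes that fell depended on single libraries and on how the spread was estimated. It was 4341 without MLACC replicate 1 and 2302 without MLACC replicate 3, and it was 786 where the spread came from the 6 libraries alone, while 3157 genes rose in that fit. Rises made up 54.9% of the calls. With upper-quartile scaling, which shifted the median of all genes to -0.34, 3179 genes rose and 5166 fell, and rises made up 38.1% of the calls. In bulk leaf tissue, fewer cells of a type and less RNA per cell cannot be told apart.

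Promoters of the responding genes were examined for short motifs that defence transcription factors bind, because WRKY genes were among the strongest risers. The 250 bases before the annotated start (RefSeq, TAIR10.1) were available for 4207 of the genes that rose, 3451 of those that fell and 19521 of all tested. The W-box core TTGAC, bound by WRKY factors, occurred on either strand in 55.3% of promoters of genes that rose, in 39.4% of those of genes that fell and in 45.1% of all. At least 2 copies were found in 21.4%, 10.3% and 14.5%. The CGCG core, bound by the calmodulin-binding CAMTA factors, was in 14.3%, 9.33% and 11.1%. The G-box CACGTG, a site of basic helix-loop-helix factors such as MYC2, was in 8.65%, 6.40% and 7.40%. TGACG, bound by TGA factors, was in 21.2%, 17.9% and 19.4%, and TTGACG holds both this motif and the W-box core. The GCC box GCCGCC of ERF factors was in 2.16%, 1.39% and 1.98%, and the evening element AAATATCT of the clock in 5.42%, 5.07% and 5.05%. These shares are descriptions, and a match is not a site shown to be bound.

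Windows of 5 genes on which the results below turn are shown from 5′ to 3′ on the strand of the gene, with every TTGAC or its complement GTCAA in capitals. They run from a window with 4 cores to a window with none. SARD1 (AT1G73805), a transcription factor that activates SA synthesis genes, is read from chr1:27749249-27749498 on the minus strand. WRKY62 (AT5G01900), which had no count in any mYFP library at 4 h, is read from chr5:352096-352345 on the minus strand. EDS5 (AT4G39030), the plastid exporter of the SA precursor, is read from chr4:18185187-18185436 on the plus strand. C4H (AT2G30490), cinnamate 4-hydroxylase of the phenylpropanoid pathway, is read from chr2:12996013-12996262 on the minus strand. ICS1 (AT1G74710), isochorismate synthase, is read from chr1:28070045-28070294 on the plus strand.
SARD1: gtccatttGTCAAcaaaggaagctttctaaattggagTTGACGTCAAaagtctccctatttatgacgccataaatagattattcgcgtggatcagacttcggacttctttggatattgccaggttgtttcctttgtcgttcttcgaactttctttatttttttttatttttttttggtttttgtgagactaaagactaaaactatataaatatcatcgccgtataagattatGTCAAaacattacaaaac
WRKY62: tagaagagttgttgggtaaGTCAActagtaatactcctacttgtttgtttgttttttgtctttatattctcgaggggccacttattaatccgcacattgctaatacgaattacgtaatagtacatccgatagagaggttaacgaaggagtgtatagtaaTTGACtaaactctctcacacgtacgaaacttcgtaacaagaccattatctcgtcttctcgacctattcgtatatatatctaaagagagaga
EDS5: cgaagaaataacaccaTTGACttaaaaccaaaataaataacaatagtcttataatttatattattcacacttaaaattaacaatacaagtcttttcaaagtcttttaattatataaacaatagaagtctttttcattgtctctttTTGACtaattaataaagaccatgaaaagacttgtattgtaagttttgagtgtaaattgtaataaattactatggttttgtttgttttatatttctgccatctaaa
C4H: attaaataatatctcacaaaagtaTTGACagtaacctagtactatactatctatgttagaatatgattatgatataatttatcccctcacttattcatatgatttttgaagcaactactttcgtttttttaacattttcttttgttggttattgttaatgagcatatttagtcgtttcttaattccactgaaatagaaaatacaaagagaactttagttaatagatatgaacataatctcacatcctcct
ICS1: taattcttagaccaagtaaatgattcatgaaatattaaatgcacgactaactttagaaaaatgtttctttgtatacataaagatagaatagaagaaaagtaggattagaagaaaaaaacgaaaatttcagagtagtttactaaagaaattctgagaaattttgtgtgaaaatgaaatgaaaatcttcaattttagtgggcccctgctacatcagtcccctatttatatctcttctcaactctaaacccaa
The SARD1 window holds 4 W-box cores, a pair of which adjoin in 1 run of capitals, as well as 1 CGCG core. The WRKY62 and EDS5 windows hold 2 cores each, and the C4H window holds 1. The ICS1 window holds none.

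Genes of SA synthesis and signalling rose together and steeply. Of 21 members tested, 19 rose and 1 fell, with a median log2FC of 4.25. ICS1, the enzyme that commits chorismate to SA, had 989, 1912 and 2232 CPM in MLACC leaves, against 20.1, 17.4 and 26.2 CPM in mYFP leaves (log2FC 6.33 ± 0.34 SE, edgeR FDR 4.27e-11). PBS3, which couples isochorismate to glutamate, had 660, 1603 and 1808 CPM in MLACC leaves and 3.47, 1.99 and 1.95 CPM in mYFP leaves (log2FC 9.10 ± 0.51 SE). EDS5 had 520, 1338 and 1431 CPM in MLACC leaves and 3.34, 2.62 and 3.55 CPM in mYFP leaves (log2FC 8.43 ± 0.53 SE). For these 3 genes every MLACC library was far above every mYFP library, and MLACC replicate 1 was the lowest of its group. The regulators followed. SARD1 had 367, 563 and 542 CPM in MLACC leaves and 8.77, 8.32 and 20.8 CPM in mYFP leaves (log2FC 5.28 ± 0.56 SE). EDS1, a lipase-like protein required by many NLRs, had 285, 439 and 457 CPM in MLACC leaves and 13.6, 10.8 and 37.7 CPM in mYFP leaves (log2FC 4.25 ± 0.44 SE, 4.97 without mYFP replicate 3). Its partner PAD4 had 336, 560 and 600 CPM in MLACC leaves and 9.94, 6.92 and 18.6 CPM in mYFP leaves (log2FC 5.40 ± 0.57 SE). In each of these, mYFP replicate 3 was the highest of the control libraries.

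The SA receptors also rose, with smaller log2FC than ICS1, PBS3 and EDS5. NPR1, an SA receptor and co-activator, had 102, 142 and 150 CPM in MLACC leaves and 37.6, 28.7 and 44.1 CPM in mYFP leaves (log2FC 1.84 ± 0.25 SE). The receptors and co-repressors NPR3 and NPR4 showed log2FC 4.67 ± 0.48 SE and 3.32 ± 0.29 SE, and NPR3 stood at 5.27 without mYFP replicate 3. PR1, the classical SA marker that is induced late, was still low at 4 h, with 0.384, 1.55 and 11.1 CPM in MLACC leaves and no counts in mYFP leaves. Against a floor of 3 counts over the mYFP group this was at least 102-fold higher. That bound rested mostly on MLACC replicate 3, without which the fitted log2FC went from 9.58 to 7.38. The member that fell was UGT74F1, one of the SA glucosyltransferases, at 0.288, 0.23 and 0.29 CPM in MLACC leaves and 0.911, 0.768 and 1.21 CPM in mYFP leaves (log2FC -1.81 ± 0.49 SE). This call was lost, and none fell, without MLACC replicate 2 (edgeR FDR 0.0125) and without mYFP replicate 3 (edgeR FDR 0.0105), and 2 members fell without MLACC replicate 1.

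The 4 genes tested of N-hydroxypipecolate metabolism, the signal of systemic acquired resistance, all rose, with a median log2FC of 10.64. FMO1, which makes N-hydroxypipecolate, had 62.1, 261 and 283 CPM in MLACC leaves, against 0, 0 and 0.0433 CPM in mYFP leaves. With 1 count in the control group the pooled ratio was 13550 (counting interval 2432 to 535260). ALD1, the first enzyme of the pathway, had 22.7, 67.6 and 96.1 CPM in MLACC leaves, against 0, 0 and 0.0867 CPM in mYFP leaves. The pooled ratio was 2107 (counting interval 583 to 17407). These intervals and the floors used here cover counting error only. UGT76B1, which glucosylates SA and N-hydroxypipecolate, had 309, 577 and 833 CPM in MLACC leaves and 0.477, 0.588 and 0.13 CPM in mYFP leaves (log2FC 10.48 ± 1.07 SE). At 2 h UGT76B1 had not been called (log2FC 0.74).

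**Figure D1:**
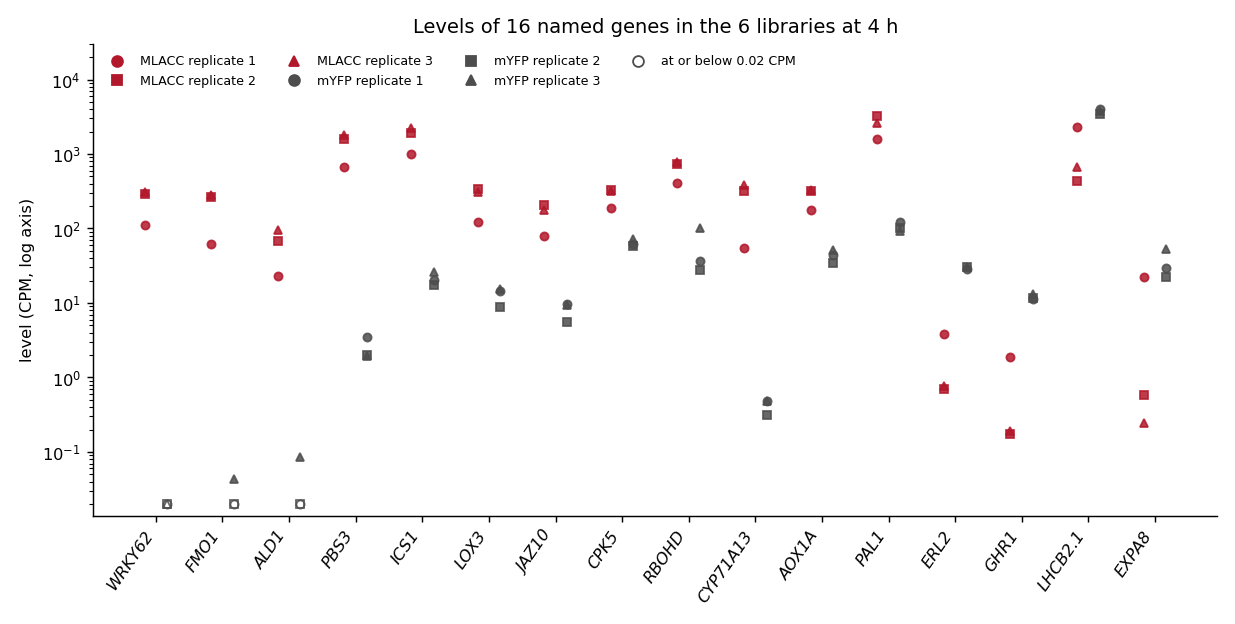
Levels of 16 named genes in the 6 libraries at 4 h, in CPM on a log axis, with MLACC libraries in red to the left of the mYFP libraries in grey and 1 symbol per replicate. Open symbols mark values at or below 0.02 CPM, as for WRKY62 in all mYFP libraries. In the genes that rose, MLACC replicate 1 (circle) lies below replicates 2 and 3, and in ERL2, GHR1, LHCB2.1 and EXPA8 it lies above them.

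Jasmonate synthesis, a branch that is often described as opposed to SA, also rose. Of 14 synthesis genes tested, 11 rose and 1 fell (median log2FC 3.40). Fatty acid dioxygenation by lipoxygenases comes first. LOX3 had 122, 343 and 305 CPM in MLACC leaves and 14.6, 8.77 and 15.3 CPM in mYFP leaves (log2FC 4.32 ± 0.45 SE). The allene oxide cyclase AOC3 had 324, 1101 and 762 CPM in MLACC leaves and 7.42, 2.31 and 3.38 CPM in mYFP leaves (log2FC 7.38 ± 0.64 SE). OPR3, which reduces the cyclic precursor in peroxisomes, had 439, 1549 and 1315 CPM in MLACC leaves and 41.9, 31.5 and 22.2 CPM in mYFP leaves (log2FC 5.11 ± 0.46 SE). The 4 cyclase genes did not move alike. AOC4 fell, with 9.37, 4.25 and 2.9 CPM in MLACC leaves and 18.1, 23.7 and 17.3 CPM in mYFP leaves (log2FC -1.84 ± 0.35 SE, -2.47 without MLACC replicate 1), whereas AOC1, AOC2 and AOC3 rose. JAR1, which conjugates jasmonate to isoleucine, was not called (log2FC 0.48 ± 0.18 SE).

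Of 20 JA signalling genes tested, 15 rose and 1 fell (median log2FC 2.23). JAZ proteins repress JA responses and are themselves JA-inducible. JAZ10 had 80.1, 205 and 178 CPM in MLACC leaves and 9.68, 5.60 and 9.27 CPM in mYFP leaves (log2FC 4.24 ± 0.38 SE). JAZ1 had 361, 854 and 798 CPM in MLACC leaves and 12.2, 9.04 and 42.1 CPM in mYFP leaves (log2FC 4.99 ± 0.64 SE, 5.93 without mYFP replicate 3). MYC2 and MYC4, related activators of JA responses, moved apart. MYC2 had 127, 166 and 135 CPM in MLACC leaves and 42.0, 27.3 and 21 CPM in mYFP leaves (log2FC 2.25 ± 0.37 SE). MYC4 had 13.6, 3.51 and 4.06 CPM in MLACC leaves and 33.8, 29.3 and 19.8 CPM in mYFP leaves (log2FC -1.96 ± 0.41 SE, -2.86 without MLACC replicate 1). The receptor COI1 stood at 37.5, 33.2 and 33.0 CPM in MLACC leaves and at 37.7, 35.2 and 29.2 CPM in mYFP leaves (log2FC 0.02 ± 0.11 SE). Among genes that inactivate the hormone or act downstream, 8 of 12 rose and the other 4 did not pass the test (median log2FC 3.57). CYP94B3, which hydroxylates the active conjugate, had 6.87, 43.1 and 13.6 CPM in MLACC leaves and 1.08, 0.136 and 0.173 CPM in mYFP leaves (log2FC 5.48 ± 1.08 SE, 4.44 without MLACC replicate 2 and 7.0 without mYFP replicate 1).

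Ethylene genes changed less uniformly. Of 10 synthesis genes tested, 4 rose and 1 fell (median log2FC -0.25), and the count that fell was 2 without MLACC replicate 1 and 2 without mYFP replicate 3. ACS2, a stress-induced isoform of the rate-limiting ACC synthase, had 37.5, 129 and 98.3 CPM in MLACC leaves and 0.26, 0.136 and 0.433 CPM in mYFP leaves (log2FC 8.28 ± 0.62 SE). ACS6 had 170, 335 and 384 CPM in MLACC leaves and 8.68, 7.91 and 31.0 CPM in mYFP leaves (log2FC 4.22 ± 0.61 SE, 5.11 without mYFP replicate 3). Of 20 perception and response genes, 7 rose and 1 fell (median log2FC 1.00). The central transducer EIN2 lay at 96.9, 89.7 and 90.5 CPM in MLACC leaves and at 95.7, 92.5 and 94.3 CPM in mYFP leaves. EIL1, a factor of the EIN3 family, was the one that fell (log2FC -1.17 ± 0.26 SE), and its log2FC was -0.98 without MLACC replicate 2, which ended the call.

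Most calcium transport genes tested rose, and pumps and channels included members of both directions. Of 19 channels and pumps tested, 12 rose and 4 fell (median log2FC 2.19), and 2 fell without MLACC replicate 2 or without MLACC replicate 3. The share that rose was 63.2%, against 21.4% over all genes tested, and the share that fell, 21.1%, was near the 17.6% over all genes. Among the calcium pumps, ACA13 had 98.5, 164 and 188 CPM in MLACC leaves and 0.868, 1.31 and 1.86 CPM in mYFP leaves (log2FC 6.79 ± 0.50 SE), and the vacuolar pump ACA11 had 296, 362 and 440 CPM in MLACC leaves and 63.3, 39.2 and 105 CPM in mYFP leaves (log2FC 2.41 ± 0.39 SE). The cyclic nucleotide-gated channels moved in both directions. CNGC19 had 49.2, 97.6 and 82.8 CPM in MLACC leaves and 0.955, 0.316 and 3.03 CPM in mYFP leaves (log2FC 5.73 ± 0.59 SE, 6.84 without mYFP replicate 3). CNGC4, whose loss causes defence without cell death, had 28.4, 8.16 and 9.18 CPM in MLACC leaves and 49.0, 62.0 and 63.7 CPM in mYFP leaves (log2FC -1.93 ± 0.34 SE, -2.75 without MLACC replicate 1). Its partner CNGC2 had 72.6, 13.2 and 12.2 CPM in MLACC leaves and 144, 147 and 123 CPM in mYFP leaves (log2FC -2.07 ± 0.61 SE, -3.44 without MLACC replicate 1), a call lost when MLACC replicate 2 (-1.70), MLACC replicate 3 (-1.68), mYFP replicate 1 (-2.06) or mYFP replicate 2 (-2.06) was left out. Thus the induced CNGC19 and the pair CNGC2 and CNGC4, well expressed in control leaves, went opposite ways.

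Of 24 calcium sensors, calcium-dependent kinases and CAMTA factors, 20 rose and the other 4 did not pass the test (median log2FC 2.21). CPK5, a kinase that phosphorylates RBOHD, had 186, 328 and 322 CPM in MLACC leaves and 61.1, 58.4 and 72.9 CPM in mYFP leaves (log2FC 2.12 ± 0.25 SE). CML41, a calmodulin-like protein of plasmodesmata, had 87.8, 163 and 198 CPM in MLACC leaves and 1.08, 0.362 and 0.953 CPM in mYFP leaves (log2FC 7.53 ± 0.78 SE). CAMTA3 is a calmodulin-binding transcription factor. It had 161, 210 and 199 CPM in MLACC leaves and 46.4, 37.4 and 82.8 CPM in mYFP leaves (log2FC 1.77 ± 0.31 SE). Its relatives CAMTA1 and CAMTA2 were not called, with log2FC 0.60 ± 0.09 SE and 0.74 ± 0.12 SE.

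Genes of recognition at the cell surface rose as well, although no microbe was inoculated. Of 17 pattern receptors and co-receptors, 15 rose and the other 2 did not pass the test (median log2FC 2.36). PEPR1 and PEPR2 perceive the plant's own Pep peptides. PEPR1 rose by a log2FC of 3.6 ± 0.37 SE. PEPR2 had 24.9, 81.2 and 65.0 CPM in MLACC leaves and 1.43, 1.90 and 2.34 CPM in mYFP leaves (log2FC 4.91 ± 0.44 SE). The 3 PROPEP genes tested, which encode precursors of those peptides, rose too (median log2FC 5.94). BAK1, the shared co-receptor, had 307, 480 and 528 CPM in MLACC leaves and 65.8, 47.4 and 90.9 CPM in mYFP leaves (log2FC 2.69 ± 0.31 SE). The flagellin receptor FLS2 was not called. It had 40.4, 32.8 and 45.5 CPM in MLACC leaves and 25.3, 23.4 and 57.1 CPM in mYFP leaves (log2FC 0.17 ± 0.54 SE). The groups overlapped through mYFP replicate 3 alone, which lay above every MLACC library, while mYFP replicates 1 and 2 lay below every one.

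Of 17 MAP kinase, phosphatase and NADPH oxidase genes, 16 rose and the other 1, MAPKKK3, did not pass the test (median log2FC 2.51). RBOHD, the main oxidase of the immune oxidative burst, had 411, 744 and 785 CPM in MLACC leaves and 36.2, 28.1 and 101 CPM in mYFP leaves (log2FC 3.55 ± 0.52 SE, 4.28 without mYFP replicate 3). RBOHF had 61.5, 97.7 and 117 CPM in MLACC leaves and 13.7, 12.6 and 14.6 CPM in mYFP leaves (log2FC 2.75 ± 0.25 SE). The immune kinases MPK4 and MPK6 rose by less, with log2FC 1.60 ± 0.18 SE and 1.44 ± 0.17 SE.

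Endogenous NLR genes and their helpers and chaperones also rose. Of 20 tested, 17 rose and the other 3, SGT1B, RRS1 and RAR1, did not pass the test (median log2FC 1.66). All 20 were higher in MLACC leaves at an unadjusted edgeR p below 0.05. AT5G66910, a helper NLR of the NRG1 type, had 79.4, 152 and 136 CPM in MLACC leaves and 4.86, 5.74 and 6.07 CPM in mYFP leaves (log2FC 4.46 ± 0.36 SE). SNC1, an autoimmunity-associated NLR, had 567, 799 and 823 CPM in MLACC leaves and 238, 182 and 272 CPM in mYFP leaves (log2FC 1.66 ± 0.22 SE). RPS4 rose (log2FC 1.90 ± 0.28 SE), whereas its paired receptor RRS1, encoded head to head with it, had 30.8, 46.7 and 39.3 CPM in MLACC leaves and 25.6, 19.8 and 26.8 CPM in mYFP leaves (log2FC 0.69 ± 0.18 SE). HSP90.1, an inducible chaperone of NLRs, had 469, 862 and 999 CPM in MLACC leaves and 17.2, 52.6 and 13.9 CPM in mYFP leaves (log2FC 4.8 ± 0.76 SE, 5.60 without mYFP replicate 2).

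Of 11 cell death regulators, 7 rose and 1 fell (median log2FC 2.52). Those that rose included known suppressors of cell death. BAP2, a membrane-associated inhibitor, had 62.7, 204 and 211 CPM in MLACC leaves and 0.13, 0 and 0.0867 CPM in mYFP leaves (log2FC 10.98 ± 0.66 SE, 11.60 without mYFP replicate 1). BI1, an ER-resident inhibitor, had 257, 403 and 474 CPM in MLACC leaves and 58.9, 70.5 and 56.9 CPM in mYFP leaves (log2FC 2.61 ± 0.20 SE). The metacaspase MC1, a positive regulator of the hypersensitive response, had 108, 187 and 202 CPM in MLACC leaves and 26.7, 25.7 and 34.3 CPM in mYFP leaves (log2FC 2.52 ± 0.24 SE), and its negative regulator LSD1 rose by log2FC 1.36 ± 0.19 SE. LOL1, which promotes cell death and opposes LSD1, fell, with 18.4, 8.91 and 10.5 CPM in MLACC leaves and 32.5, 31.6 and 48.7 CPM in mYFP leaves (log2FC -1.57 ± 0.30 SE).

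Among transcription factors, WRKY genes stood out by number and size. Of 53 tested, 34 rose and 1 fell (median log2FC 3.05). WRKY62, whose promoter is shown above, had 113, 286 and 314 CPM in MLACC leaves and no counts in mYFP leaves, at least 5335-fold higher against the floor. WRKY67 and WRKY75, likewise without counts in mYFP leaves, were at least 2268-fold and at least 1740-fold higher. WRKY70, a regulator at the junction of SA and JA responses, had 578, 1100 and 1075 CPM in MLACC leaves and 6.86, 5.79 and 9.19 CPM in mYFP leaves (log2FC 6.98 ± 0.64 SE). WRKY3 was the gene that fell, with 16.7, 7.59 and 10.1 CPM in MLACC leaves and 26.3, 30.3 and 24.9 CPM in mYFP leaves (log2FC -1.24 ± 0.22 SE). Another WRKY gene joined it, for 2 in all, when MLACC replicate 1, mYFP replicate 2 or mYFP replicate 3 was left out.

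Other factor families changed in part. Of 18 ERF genes tested, 9 rose and the other 9 did not pass the test (median log2FC 1.64). ERF1, an integrator of ethylene and JA, had 6.30, 20.7 and 18.2 CPM in MLACC leaves and 0, 0.181 and 0.0867 CPM in mYFP leaves (log2FC 7.33 ± 0.69 SE, 6.72 without mYFP replicate 1, 8.22 without mYFP replicate 2). Of 55 NAC genes, 29 rose and 1 fell (median log2FC 1.41). NAC019, which acts in JA and abscisic acid responses, had 47.0, 368 and 283 CPM in MLACC leaves and 2.13, 1.49 and 0.607 CPM in mYFP leaves (log2FC 7.36 ± 0.78 SE). The NAC gene that fell, NAC041, lost its call without MLACC replicate 3 (log2FC -1.02) or without mYFP replicate 2 (log2FC -1.09), and without MLACC replicate 2 it stood at -1.16 (edgeR FDR 0.0157). Without MLACC replicate 1, 2 NAC genes fell. Of 54 MYB genes, 18 rose and 13 fell (median log2FC 0.17), and 6, 5 and 6 fell without MLACC replicate 2, MLACC replicate 3 and mYFP replicate 1. MYB122, an activator of indole glucosinolate genes, had 17.5, 44.0 and 43.4 CPM in MLACC leaves and 0.0434, 0.0904 and 0.0867 CPM in mYFP leaves (log2FC 8.79 ± 0.74 SE). MYB29, an activator of aliphatic glucosinolate genes, had 9.32, 2.7 and 0.483 CPM in MLACC leaves and 32.1, 45.5 and 30.8 CPM in mYFP leaves (log2FC -3.11 ± 0.76 SE, -4.54 without MLACC replicate 1).

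Metabolic branches of defence diverged likewise, beginning with tryptophan, the precursor of camalexin and indole glucosinolates. Of 8 tryptophan synthesis genes, 7 rose and the other 1, PAI1, did not pass the test (median log2FC 3.61). ASA1, the feedback-regulated first enzyme, had 230, 713 and 640 CPM in MLACC leaves and 43.5, 37.0 and 38.8 CPM in mYFP leaves (log2FC 3.73 ± 0.36 SE). TSB1, the final enzyme, had 639, 1597 and 1440 CPM in MLACC leaves and 132, 167 and 156 CPM in mYFP leaves (log2FC 3.01 ± 0.32 SE). All 7 genes tested for camalexin and indole carbonylnitrile synthesis rose (median log2FC 6.29), and 6 rose without MLACC replicate 2, mYFP replicate 2 or mYFP replicate 3. CYP79B2, which converts tryptophan to the common oxime, had 444, 1217 and 933 CPM in MLACC leaves and 18.3, 7.77 and 7.06 CPM in mYFP leaves (log2FC 6.29 ± 0.70 SE). CYP71A13 had 54.4, 320 and 379 CPM in MLACC leaves and 0.477, 0.316 and 0.477 CPM in mYFP leaves (log2FC 9.19 ± 0.87 SE). PAD3, the last step to camalexin, had 319, 1519 and 1564 CPM in MLACC leaves and 0.174, 2.40 and 1.43 CPM in mYFP leaves (log2FC 9.73 ± 1.05 SE, 10.41 without mYFP replicate 2). MLACC replicate 1 was well below replicates 2 and 3 in these genes, and still far above every mYFP library.

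Of 12 genes of indole glucosinolates and the PEN pathway, 6 rose and 1 fell (median log2FC 1.68), and 9 rose without mYFP replicate 3. SOT16, a sulfotransferase of the indole branch, had 596, 1444 and 1077 CPM in MLACC leaves and 48.3, 40.5 and 37.0 CPM in mYFP leaves (log2FC 4.63 ± 0.38 SE). MYB34 fell (log2FC -1.91 ± 0.56 SE), a call lost without MLACC replicate 2 (-1.89, edgeR FDR 0.0178), without MLACC replicate 3 (-1.58) and without mYFP replicate 1 (-1.71). The aliphatic branch went the other way. Of 17 genes tested, 12 fell and the other 5 did not pass the test (median log2FC -2.49). The number that fell was 5, 4, 7 and 6 without MLACC replicate 2, MLACC replicate 3, mYFP replicate 1 and mYFP replicate 2. MYB76, a MYB factor of this branch, had 0.529, 0.115 and 0.0966 CPM in MLACC leaves and 2.04, 2.71 and 1.69 CPM in mYFP leaves (log2FC -3.06 ± 0.68 SE, -4.28 without MLACC replicate 1). SOT18, an aliphatic sulfotransferase, had 25.5, 7.41 and 2.99 CPM in MLACC leaves and 62.7, 57.6 and 46.0 CPM in mYFP leaves (log2FC -2.21 ± 0.49 SE, -3.42 without MLACC replicate 1). Thus the indole and aliphatic sulfotransferases SOT16 and SOT18 moved in opposite directions.

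Phenylpropanoid and lignin genes, which lead from phenylalanine to cell wall polymers and soluble phenolics, formed a further group. Of 19 tested, 14 rose and 2 fell (median log2FC 2.50). PAL1, the entry enzyme, had 1584, 3230 and 2643 CPM in MLACC leaves and 123, 102 and 91.7 CPM in mYFP leaves (log2FC 4.56 ± 0.38 SE). C4H had 751, 1231 and 1145 CPM in MLACC leaves and 65.6, 70.7 and 56.7 CPM in mYFP leaves (log2FC 4.02 ± 0.28 SE). COMT1, a methyltransferase of lignin synthesis, had 747, 1296 and 1517 CPM in MLACC leaves and 147, 183 and 154 CPM in mYFP leaves (log2FC 2.88 ± 0.22 SE). Isoforms of one step differed in direction. The ligase 4CL2 had 46.3, 107 and 86.3 CPM in MLACC leaves and 3.91, 5.06 and 3.16 CPM in mYFP leaves (log2FC 4.3 ± 0.38 SE), whereas 4CL3, the isoform tied to flavonoids, had 2.98, 1.72 and 2.08 CPM in MLACC leaves and 22.6, 14.6 and 14.1 CPM in mYFP leaves (log2FC -2.91 ± 0.35 SE). The reductase CCR2, known from pathogen responses, had 116, 403 and 328 CPM in MLACC leaves and 0.521, 0.452 and 1.39 CPM in mYFP leaves (log2FC 8.47 ± 0.80 SE, 9.11 without mYFP replicate 3), while CCR1, the isoform of developmental lignification, was not called at 186, 213 and 201 CPM in MLACC leaves and 129, 122 and 105 CPM in mYFP leaves (log2FC 0.76 ± 0.14 SE). Of the 2 genes that fell, PAL3 (log2FC -1.40 ± 0.46 SE, -2.49 without MLACC replicate 1) lost its call when any one of the 4 h libraries other than MLACC replicate 1 was left out. The number that fell was 1 without MLACC replicate 2, MLACC replicate 3, mYFP replicate 1 or mYFP replicate 2, and 3 without MLACC replicate 1.

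Flavonoid genes did not follow the entry steps. Of 8 tested, 4 fell and the other 4 did not pass the test (median log2FC -1.37), and 2 fell without mYFP replicate 1. Chalcone synthase, CHS, had 11.9, 3.33 and 2.51 CPM in MLACC leaves and 66.6, 49.2 and 28.3 CPM in mYFP leaves (log2FC -3.01 ± 0.69 SE, -4.04 without MLACC replicate 1).

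Of 12 mitochondrial stress genes, 8 rose and the other 4 did not pass the test (median log2FC 2.35). The alternative oxidases bypass part of the respiratory chain. AOX1D had 20.5, 111 and 110 CPM in MLACC leaves and no counts in mYFP leaves, at least 1785-fold higher against the floor. AOX1A had 176, 320 and 331 CPM in MLACC leaves and 44.1, 34.6 and 51.9 CPM in mYFP leaves (log2FC 2.66 ± 0.36 SE). NDB2, an alternative NADH dehydrogenase, had 189, 494 and 454 CPM in MLACC leaves and 16.6, 15 and 13.4 CPM in mYFP leaves (log2FC 4.66 ± 0.39 SE). Glutathione transferases of the tau and phi classes, which detoxify reactive compounds, rose in 23 of 35 cases and fell in 4 (median log2FC 2.93). GSTU4 had 91.1, 469 and 406 CPM in MLACC leaves and 0.0868, 0.316 and 0.303 CPM in mYFP leaves (log2FC 10.39 ± 0.97 SE). GSTF8, a widely used stress marker, had 801, 1187 and 1451 CPM in MLACC leaves and 114, 156 and 180 CPM in mYFP leaves (log2FC 2.93 ± 0.26 SE). GSTU26 fell, with 1.15, 1.38 and 1.59 CPM in MLACC leaves and 6.60, 9.81 and 12 CPM in mYFP leaves (log2FC -2.78 ± 0.36 SE).

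Protein quality control was induced unevenly at 4 h. Of 21 ER folding genes, 9 rose and 1 fell (median log2FC 0.77), and the call of the one that fell was lost without MLACC replicate 2 or without mYFP replicate 2. BIP2, an ER chaperone, had 312, 368 and 550 CPM in MLACC leaves and 92.1, 224 and 114 CPM in mYFP leaves (log2FC 1.51 ± 0.28 SE). HSP90.7, another ER chaperone, overlapped between the lines, with 316, 235 and 392 CPM in MLACC leaves and 218, 449 and 272 CPM in mYFP leaves (log2FC 0.01 ± 0.22 SE). CNX1, the lectin chaperone calnexin, had 314, 308 and 439 CPM in MLACC leaves and 142, 351 and 160 CPM in mYFP leaves. It was not called with all libraries (log2FC 0.70 ± 0.25 SE) and was called without mYFP replicate 2 (log2FC 1.19). In each of these genes, mYFP replicate 2 was the highest control library. Subunit genes of the 26S proteasome lay near the threshold. Of 35 tested, 17 rose and the other 18 did not pass the test (median log2FC 0.99), while 27 rose without MLACC replicate 1 and 7 with upper-quartile scaling. All 35 were higher in MLACC leaves at an unadjusted edgeR p below 0.05. RPT2A, an ATPase subunit, had 249, 351 and 441 CPM in MLACC leaves and 108, 125 and 115 CPM in mYFP leaves (log2FC 1.58 ± 0.17 SE).

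Many nuclear genes of photosynthesis fell. Of 41 light-harvesting and photosystem genes, 21 fell and the other 20 did not pass the test (median log2FC -1.11), with 31 falling without MLACC replicate 1, 10 without MLACC replicate 2 and 36 with upper-quartile scaling. At an unadjusted edgeR p below 0.05, 40 of the 41 were lower in MLACC leaves and none was higher. LHCB2.1, an antenna protein of photosystem II, had 2298, 433 and 666 CPM in MLACC leaves and 3961, 3407 and 3793 CPM in mYFP leaves (log2FC -1.72 ± 0.47 SE, -2.76 without MLACC replicate 1). Its call was lost without MLACC replicate 2 (-1.33) or without MLACC replicate 3 (-1.45). Of 20 Calvin cycle genes, 10 fell and the other 10 did not pass the test (median log2FC -1.0), and 4 and 6 fell without MLACC replicates 2 and 3. PRK, phosphoribulokinase, had 736, 273 and 286 CPM in MLACC leaves and 1624, 1338 and 1558 CPM in mYFP leaves (log2FC -1.80 ± 0.42 SE, -2.43 without MLACC replicate 1). RBCS1A, a Rubisco small subunit, was not called, at 13958, 12986 and 16343 CPM in MLACC leaves and 18720, 19976 and 21223 CPM in mYFP leaves (log2FC -0.47 ± 0.23 SE). In all of these genes every MLACC library was below every mYFP library.

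Chlorophyll synthesis followed. Of 22 genes, 14 fell and the other 8 did not pass the test (median log2FC -1.40). CHLM, a methyltransferase of the magnesium branch, had 170, 44.6 and 43.1 CPM in MLACC leaves and 373, 356 and 433 CPM in mYFP leaves (log2FC -2.17 ± 0.49 SE, -3.14 without MLACC replicate 1). PORC, a light-dependent reductase of the final steps, had 81.1, 21.2 and 27.4 CPM in MLACC leaves and 190, 214 and 209 CPM in mYFP leaves (log2FC -2.24 ± 0.43 SE, -3.07 without MLACC replicate 1). Of 12 breakdown genes, 3 rose and 3 fell (median log2FC -0.22), near the shares of 21.4% and 17.6% over all genes, and 1 fell without MLACC replicate 2. PPH, which removes the phytol tail, rose (log2FC 1.17 ± 0.13 SE). The plastid's own genes showed no such fall. None of 88 plastid-encoded genes tested was called in the edgeR test or by DESeq2, 7 were higher and 3 lower at an unadjusted p below 0.05, 1 fell without mYFP replicate 1, and their summed level was 10189 to 12870 CPM in MLACC leaves and 8460.6 to 10575 CPM in mYFP leaves. Since the libraries were made from poly(A) RNA, these transcripts were sampled only in part.

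**Figure D2:**
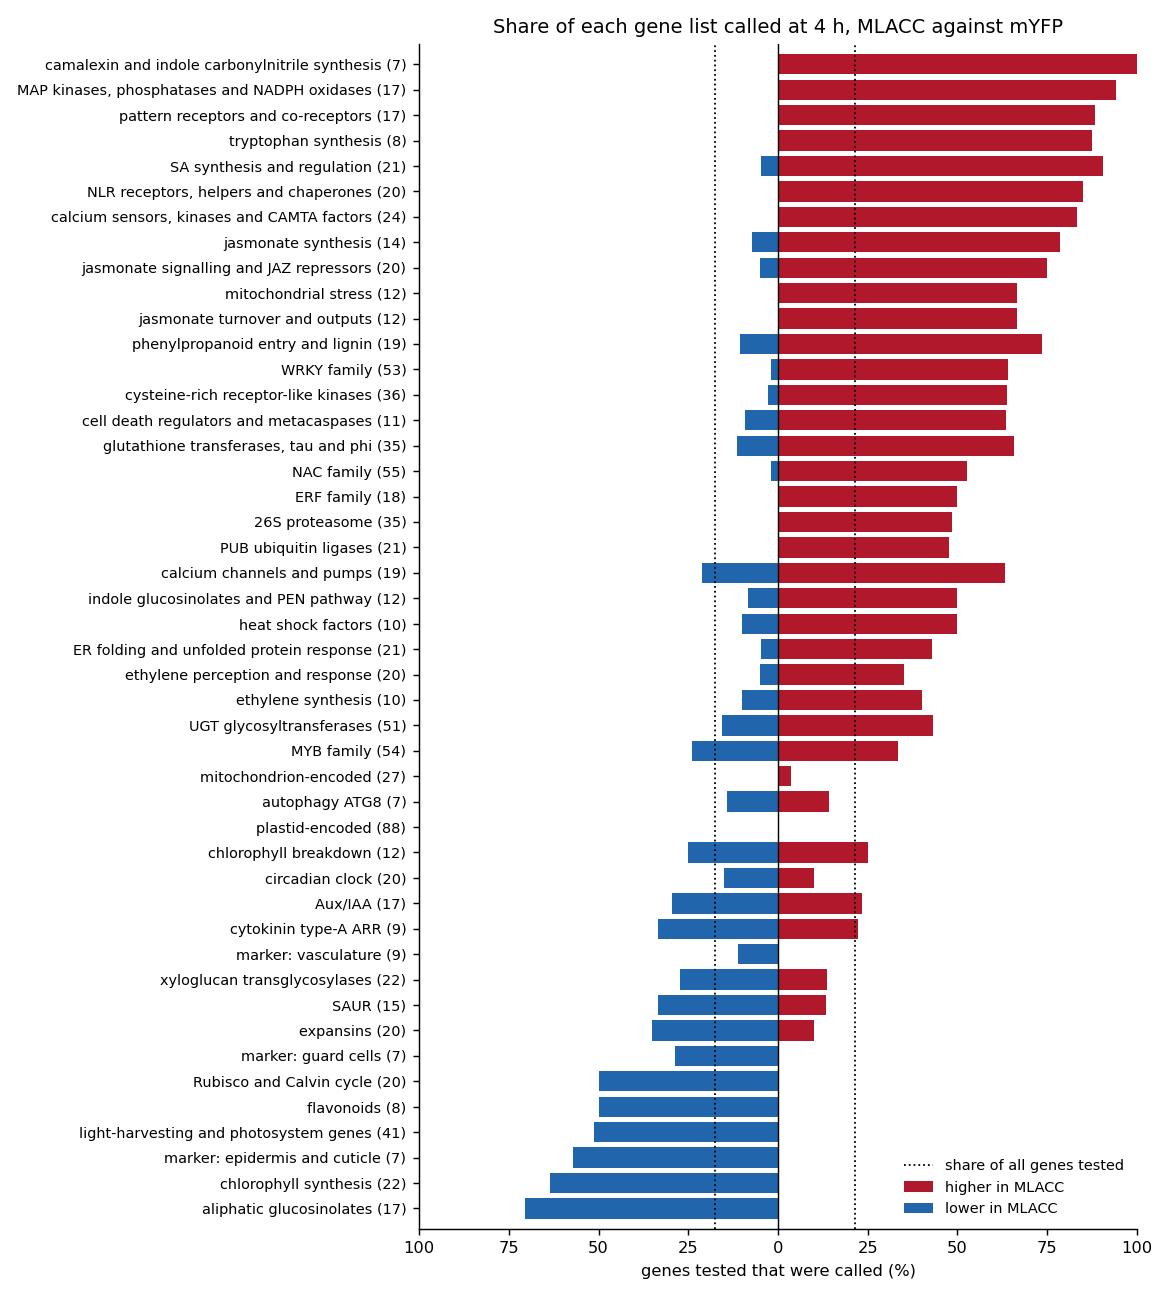
Share of each gene list (%, number of genes tested in parentheses) that rose in MLACC leaves relative to mYFP leaves at 4 h (red bars, to the right) or fell (blue bars, to the left), with dotted lines at the shares over all genes tested, 21.4% and 17.6%. With all libraries, all 7 camalexin genes rose, and 12 of 17 aliphatic glucosinolate genes fell.

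The 4 genes described first here come from the 15 called genes with the lowest log2FC whose libraries did not overlap and reached 5 CPM. The gene with the most negative log2FC among well expressed genes, AT1G67750, encodes a pectate lyase and had 1.25, 0.402 and 0.0483 CPM in MLACC leaves and 35.9, 36.8 and 36.0 CPM in mYFP leaves (log2FC -5.97 ± 0.82 SE, edgeR FDR 2.20e-06, -7.38 without MLACC replicate 1). AT1G60590, a pectin lyase-like protein, had 3.32, 0.46 and 0.29 CPM in MLACC leaves and 32.9, 27.3 and 26.2 CPM in mYFP leaves (log2FC -4.38 ± 0.96 SE, -6.26 without MLACC replicate 1). A receptor kinase of stomatal patterning, ERL2, had 3.84, 0.69 and 0.773 CPM in MLACC leaves and 28.6, 30.5 and 30.8 CPM in mYFP leaves (log2FC -4.06 ± 0.48 SE, -5.34 without MLACC replicate 1). GHR1, a receptor-like protein of stomatal closure, had 1.87, 0.172 and 0.193 CPM in MLACC leaves and 11.5, 11.6 and 13.2 CPM in mYFP leaves (log2FC -3.97 ± 0.78 SE, -6.00 without MLACC replicate 1). The control libraries were close together in these 4 genes, and the MLACC libraries lay far below them. Of 20 expansin genes, which loosen the wall, 2 rose and 7 fell (median log2FC -1.47). These were 10% and 35%, against 21.4% and 17.6% over all genes tested. EXPA6 had 21.3, 4.37 and 3.33 CPM in MLACC leaves and 46.2, 46.6 and 48.3 CPM in mYFP leaves (log2FC -2.28 ± 0.56 SE, -3.61 without MLACC replicate 1). The 2 that rose were EXPB4, with a log2FC of 1.41 ± 0.43 SE, and EXPA12, which had no counts in mYFP leaves and was at least 7.72-fold higher in MLACC leaves. Both calls were lost without MLACC replicate 2, MLACC replicate 3, mYFP replicate 1 or mYFP replicate 2, and that of EXPA12 also without mYFP replicate 3. Without MLACC replicate 3 or mYFP replicate 2, 1 other expansin gene passed in their place. Of 22 xyloglucan transglycosylases, 3 rose (13.6%) and 6 fell (27.3%, median log2FC -1.14), with 3 falling without MLACC replicate 3.

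Type-A response regulators, which report cytokinin signalling, included 2 that rose and 3 that fell of 9 (median log2FC -1.08). The share that rose, 22.2%, was near the 21.4% over all genes tested, and 33.3% fell, against 17.6%. ARR5 had 17, 23.3 and 22.5 CPM in MLACC leaves and 2.52, 2.49 and 3.90 CPM in mYFP leaves (log2FC 2.81 ± 0.37 SE). ARR8 had 8.12, 2.87 and 3.77 CPM in MLACC leaves and 16, 17.5 and 18.2 CPM in mYFP leaves (log2FC -1.80 ± 0.35 SE). The number that rose was 1 without MLACC replicate 2, MLACC replicate 3, mYFP replicate 1 or mYFP replicate 2, and the number that fell was 5 without MLACC replicate 1. Few clock genes were called. Of 20, 2 rose and 3 fell (median log2FC -0.27), shares of 10% and 15% that were below those over all genes tested. The number that fell was 5 without MLACC replicate 1 and 1 without mYFP replicate 1, while all 3 calls were lost without MLACC replicate 2 or 3. TOC1, an evening repressor, had 36.0, 60.3 and 61.0 CPM in MLACC leaves and 15.9, 11 and 18.6 CPM in mYFP leaves (log2FC 1.79 ± 0.26 SE). GI, an evening gene, lay at 105, 109 and 101 CPM in MLACC leaves and at 85.3, 89.1 and 94.2 CPM in mYFP leaves (log2FC 0.23 ± 0.17 SE).

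Markers of other leaf cell types were examined in the same libraries. Of 7 epidermis and cuticle markers tested, 4 fell and the other 3 did not pass the test (median log2FC -1.86). Their summed level was 84.8 to 381 CPM in MLACC leaves and 600.4 to 871 CPM in mYFP leaves. Without MLACC replicate 1 all 7 fell, and without MLACC replicate 2, MLACC replicate 3 and mYFP replicate 1 the number was 2, 1 and 2. LTP1, a lipid transfer protein of the epidermis, had 190, 26.6 and 23 CPM in MLACC leaves and 409, 461 and 314 CPM in mYFP leaves (log2FC -2.31 ± 0.55 SE, -3.99 without MLACC replicate 1). Guard cell markers summed to 79.4 to 87.9 CPM in MLACC leaves and to 92.0 to 103 CPM in mYFP leaves. Of 7, 2 fell (28.6%, against 17.6% over all genes tested, median log2FC -0.46), and 1 fell without MLACC replicate 2, MLACC replicate 3 or mYFP replicate 3. Vascular markers summed to 608 to 871 CPM in MLACC leaves and to 869.6 to 956 CPM in mYFP leaves. SULTR2;1 was the one that fell of 9 (log2FC -1.53 ± 0.45 SE, -2.17 without MLACC replicate 1), a call lost without MLACC replicate 3 (-1.13), mYFP replicate 1 (-1.59) or mYFP replicate 2 (-1.45), and without MLACC replicate 2 it stood at -1.47 (edgeR FDR 0.0211). Without MLACC replicate 1, 2 of the 9 fell. With all libraries the share of vascular markers that fell, 11.1%, was below the 17.6% over all genes tested. SUC2, the phloem companion cell sucrose transporter, lay at 250, 218 and 237 CPM in MLACC leaves and at 251, 226 and 229 CPM in mYFP leaves (log2FC -0.00 ± 0.13 SE). The part of the epidermal markers in the results on growth and cell wall genes was not tested.

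Many of the largest rises belonged to genes without counts in control leaves. Among the 15 genes with the highest log2FC whose libraries did not overlap, besides the WRKY, pipecolate and AOX1D genes given above, CYP710A1, a sterol desaturase, had 14.7, 85 and 104 CPM in MLACC leaves and no counts in mYFP leaves (at least 1521-fold higher). UGT73B4, a glycosyltransferase, was at least 1297-fold higher, with 25.9, 83.6 and 66.0 CPM in MLACC leaves. The sucrose symporter gene SUC7 was at least 1088-fold higher, with 15.3, 70.7 and 61.3 CPM in MLACC leaves, but it has near-identical relatives, and reads shared between such copies were not counted. BON3, a copine of the plasma membrane, was at least 723-fold higher, with 14.6, 42.4 and 40.2 CPM in MLACC leaves. The same caution on copies holds for UGT76E12, the GSTU and CYP71A genes, and members of the photosynthetic LHCB1 and RBCS families. GRX480, a glutaredoxin that links SA with JA responses, had 29.1, 111 and 159 CPM in MLACC leaves and 0, 0 and 0.0433 CPM in mYFP leaves (pooled ratio 6758, counting interval 1212 to 266990). Transporters of the pleiotropic drug resistance type were high in absolute terms. ABCG40 had 1144, 4300 and 5052 CPM in MLACC leaves and 0.738, 4.47 and 4.25 CPM in mYFP leaves (log2FC 10.12 ± 1.15 SE). PEN3, which exports defence compounds at sites of attack, had 2817, 5009 and 5962 CPM in MLACC leaves and 596, 251 and 1240 CPM in mYFP leaves (log2FC 2.72 ± 0.52 SE, 3.39 without mYFP replicate 3).

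To place the 4 h response in time, the same comparison was made at 2 h and 6 h, and the difference between the effects was tested directly. Of the 4209 genes that rose at 4 h, 760 had also risen at 2 h and 3123 also rose at 6 h. These were 93.4% of the 814 genes up at 2 h and 84.4% of the 3699 genes up at 6 h. Of the 3456 genes that fell at 4 h, 13 had also fallen at 2 h, of 23 in all, and 1558 also fell at 6 h, 75.4% of the 2067 down at that time. Effects were compared as signed log2FC, so that a lower effect can be a deeper fall. The effect at 4 h was higher than at 2 h in 1396 genes (7.1%) and lower in 409 genes (2.08%) by the interaction test. Of the genes that fell at 4 h, 372 had a larger fall than at 2 h by this test. Against 6 h the effect at 4 h was higher in 50 genes (0.254%) and lower in 29 genes (0.148%). Both sets of counts depended on MLACC replicate 1. Without it 4642 genes (23.4%) rose and 4341 genes (21.9%) fell at 4 h, the effect at 4 h was higher than at 2 h in 2281 genes (11.5%) and lower in 2767 genes (13.9%), and it was higher than at 6 h in 304 genes (1.53%) and lower in 715 genes (3.6%). Other libraries moved these counts as well. Without MLACC replicate 3 at 4 h the effect was higher than at 2 h in 777 genes and lower in 105. When any other single library of 4 h or 6 h was left out, the count higher than at 6 h was between 7 and 31, with the lowest value without MLACC replicate 3 at 6 h, and the count lower than at 6 h was 8 without that library or without MLACC replicate 2 at 4 h.

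The number of list members with a higher effect at 4 h than at 2 h is set here beside the share over all genes, 7.1%, and differences between lists were not tested. Of the 20 JA signalling genes, 1 had a higher effect at 4 h, close to that share, and JAZ10 had a log2FC of 3.17 at 2 h, 4.24 at 4 h and 5.01 at 6 h. Of the 8 tryptophan genes, 7 had one, and ASA1 had a log2FC of 0.76 at 2 h, 3.73 at 4 h and 3.98 at 6 h. Of the 35 proteasome genes, 17 had one. CYP71A13 had a log2FC of 0.27 at 2 h, 9.19 at 4 h and 9.79 at 6 h, and the difference between 4 h and 2 h was 8.92. For UGT76B1 this difference was 9.73. ER folding genes had a higher median at the later time. Their median log2FC was 0.77 at 4 h and 1.84 at 6 h, and 4 of 21 were lower at 4 h than at 6 h. HSP90.7 had a log2FC of 0.02 at 2 h, 0.01 at 4 h and 1.81 at 6 h (difference between 4 h and 6 h -1.81).

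Phenylpropanoid genes were the list with the most members whose effect at 4 h was higher than at 6 h. Of the 19 genes, 10 had a higher effect at 4 h than at 2 h and 6 had a higher effect than at 6 h, where the background of all genes was 0.254%. The effect on 4CL2 was a log2FC of 0.69 at 2 h, 4.3 at 4 h and 1.79 at 6 h (difference between 4 h and 6 h 2.52). PAL2 showed 0.68, 2.93 and 0.79 at 2, 4 and 6 h, with a mean level at 4 h of 1212 CPM in MLACC leaves and 159 CPM in mYFP leaves. 4CL1 showed 0.52, 2.55 and 0.42 at these times, C4H 0.87, 4.02 and 2.21, CCOAOMT1 0.38, 2.50 and 0.88, and CYP98A3 -0.20, 1.45 and 0.28. The calls of the difference from 6 h lay close to the threshold in part of these genes, at an edgeR FDR of 0.00995 for C4H, 0.0081 for PAL2 and 0.00798 for 4CL2. They also depended on single libraries. With MLACC replicate 1 of 4 h left out, 8 list members were called. With MLACC replicate 3 of 6 h left out none was (10 at an unadjusted p below 0.05), and with any one of the other 10 libraries of these times left out 1 to 4 were. None was called in the edgeR fit of the groups compared alone, where 11 had a higher effect at an unadjusted p below 0.05, while DESeq2 on all libraries called 8. The difference stayed above 0 for all 6 genes in each of these fits. 4CL1 kept its call in 11 of the 12 fits with 1 library left out, with a difference of 1.93 to 2.35, whereas the other 5 kept theirs in 1 to 3. PAL1 showed 1.15, 4.56 and 3.19, and its difference between 4 h and 6 h, 1.36, was not called. Over all genes, 23 that rose at 4 h were higher than at both times. They included MAT3, named here after its values were seen, which makes the methyl donor S-adenosylmethionine used by lignin methyltransferases, with a mean level of 1443 CPM in MLACC leaves and 366 CPM in mYFP leaves, and LBD11, a LOB domain protein, with 6.68, 12.9 and 8.16 CPM in MLACC leaves and 0.26, 0.136 and 0.303 CPM in mYFP leaves.

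**Figure D3:**
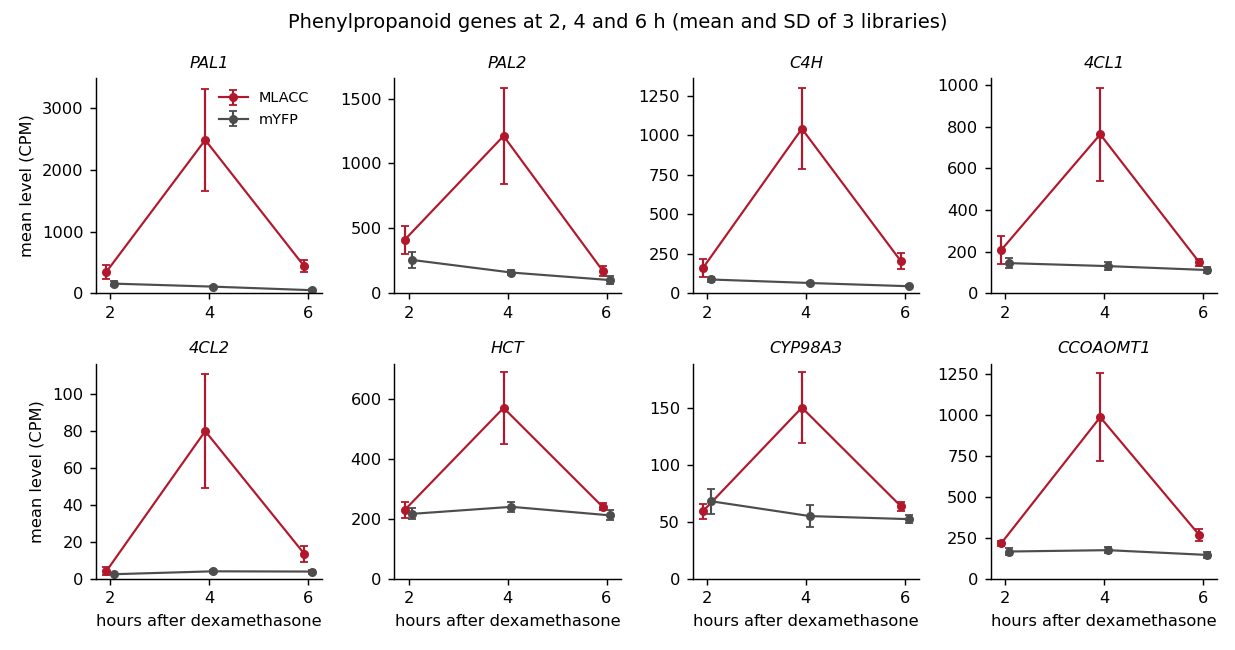
Mean levels with SD of 3 libraries (CPM) of phenylpropanoid genes in MLACC (red) and mYFP (grey) leaves at 2, 4 and 6 h. In MLACC leaves C4H and 4CL1 reach their highest mean at 4 h, and the mYFP means lie below it at all 3 times.

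MLACC replicate 1 was then examined by itself. Across all genes it was nearer to the mean of the MLACC libraries at 6 h (median absolute log2 difference 0.29) than to the mean of the other MLACC libraries at 4 h (0.47) or to the mean at 2 h (0.42). Replicates 2 and 3 were nearest to 4 h (0.28 and 0.31). The deviation ran along the response itself. Among genes that rose, the median log2 difference from the mYFP mean was 1.60 in replicate 1, 2.3 in replicate 2 and 2.39 in replicate 3. Among genes that fell it was -1.0, -2.12 and -2.17. Of the genes that rose, 4061 (96.5%) were lower in replicate 1 than the mean of the other 2, and of those that fell, 3273 were higher. These medians describe called genes only, and the calls used the same libraries. Taken over genes with at least 5 CPM, replicate 1 was more than 1 log2 unit above both other MLACC libraries in 1314 genes and below both in 713, against 37 and 83 for replicate 2 and 39 and 141 for replicate 3.

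**Figure D4:**
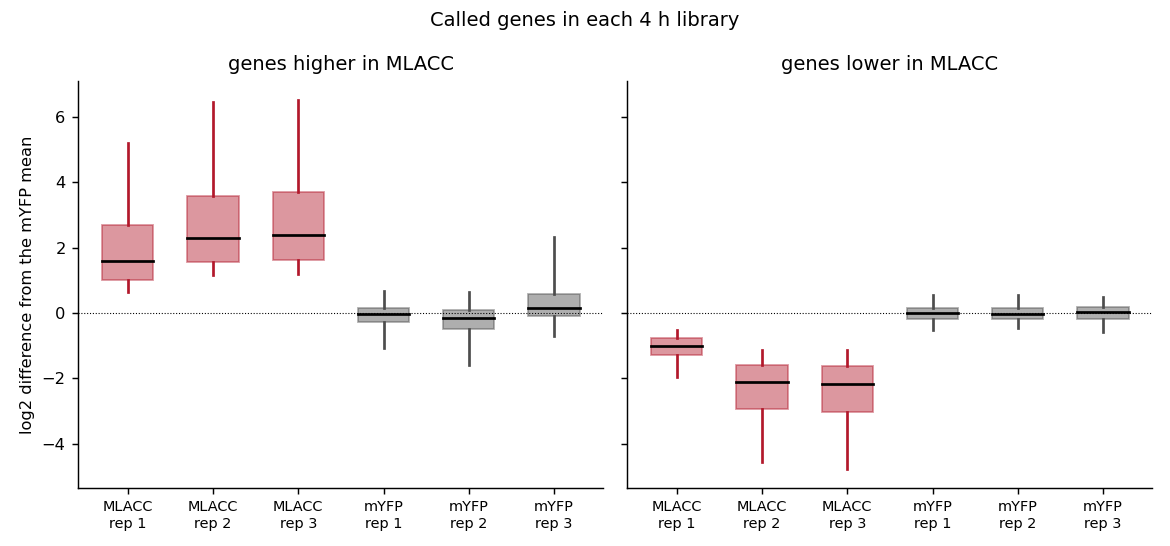
Log2 difference of each MLACC library (red) and each mYFP library (grey) at 4 h from the mYFP mean, for genes that rose and genes that fell, with boxes from the lower to the upper quartile, a line at the median and whiskers from the 5th to the 95th percentile. MLACC replicate 1 is shifted towards 0 in both sets, with medians of 1.60 and -1.0, against 2.3 and -2.12 in replicate 2 and 2.39 and -2.17 in replicate 3.

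The genes in which replicate 1 lay farthest above replicates 2 and 3 included cell wall and growth genes that were almost silent in those replicates. XTH6, a xyloglucan transglycosylase, had 35.4, 0.747 and 0.145 CPM in MLACC leaves and 110, 86.6 and 106 CPM in mYFP leaves. It was not called with all libraries (log2FC -3.06, edgeR FDR 0.0246) and fell by 7.87 on the log2 scale without replicate 1. FRO6, a ferric reductase of leaves, had 118, 1.38 and 2.51 CPM in MLACC leaves and 361, 267 and 421 CPM in mYFP leaves. NCED4, a carotenoid cleavage enzyme, had 133, 1.95 and 2.22 CPM in MLACC leaves and 279, 226 and 231 CPM in mYFP leaves. In all 3 genes replicate 1 was lower than the controls, by less than the other libraries. EXPA8 had 22, 0.575 and 0.242 CPM in MLACC leaves and 29.2, 22.6 and 53.0 CPM in mYFP leaves, so that replicate 1 was just under the control range (log2FC -2.19 with all libraries and -6.44 without replicate 1). The growth-associated SAUR genes showed the same pattern as a list. Of 15 tested, 2 rose and 5 fell (median log2FC -1.73), shares of 13.3% and 33.3% against 21.4% and 17.6% over all genes tested. Leaving out MLACC replicate 1 raised the number that fell to 10, leaving out mYFP replicate 1 or 2 lowered it to 1 or 3, and all 5 calls were lost when MLACC replicate 2, MLACC replicate 3 or mYFP replicate 3 was left out. SAUR15 had 4.71, 0 and 0 CPM in MLACC leaves and 5.77, 5.11 and 5.07 CPM in mYFP leaves. In the other direction, GSTU3 had 5.86, 41.3 and 58.5 CPM in MLACC leaves and no counts in mYFP leaves, so that replicate 1 was raised least.

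In the control line, mYFP replicate 3 was more than 1 log2 unit above both other mYFP libraries in 427 of 13818 genes that passed a filter on level. Of these 427 genes, 323 (75.6%) rose with MLACC, against 21.4% over all genes tested. For mYFP replicates 1 and 2 the same counts were 7 of 36 and 14 of 25. Genes of early defence signalling were among the 427, and those named here were chosen after their values were seen. WRKY40, a negative regulator of defence, had 281, 697 and 630 CPM in MLACC leaves and 3.73, 1.22 and 81.8 CPM in mYFP leaves (log2FC 4.21 ± 1.11 SE), its log2FC was 7.70 when mYFP replicate 3 and 3.61 when mYFP replicate 2 was left out, and its call was lost without mYFP replicate 1 (log2FC 3.67, edgeR FDR 0.0111). FRK1, a receptor kinase widely used as a marker of pattern-triggered immunity, had 213, 74.4 and 317 CPM in MLACC leaves and 5.12, 5.38 and 96.7 CPM in mYFP leaves. It was not called with all libraries (log2FC 2.49, edgeR FDR 0.0298) and rose without mYFP replicate 3 (log2FC 5.22, edgeR FDR 0.000389). CYP81F2, which modifies indole glucosinolates, had 92.6, 48.8 and 102 CPM in MLACC leaves and 3.26, 4.07 and 81.9 CPM in mYFP leaves. Its log2FC was 1.45 with all libraries (edgeR FDR 0.132) and 4.43 without mYFP replicate 3 (edgeR FDR 0.000108). For FRK1 and CYP81F2 the level in mYFP replicate 3 lay within the range of the MLACC libraries. Across all genes the numbers called moved little without this library, with 4114 genes rising and 3260 falling. Fold changes moved more. Of the 550 named genes called, 80 moved by more than 1.5 times without mYFP replicate 3, and 77 of these became larger in size. Without MLACC replicate 1 the number that moved was also 80. Neither the origin of the pattern in mYFP replicate 3 nor that of MLACC replicate 1 was tested.

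**Figure D5:**
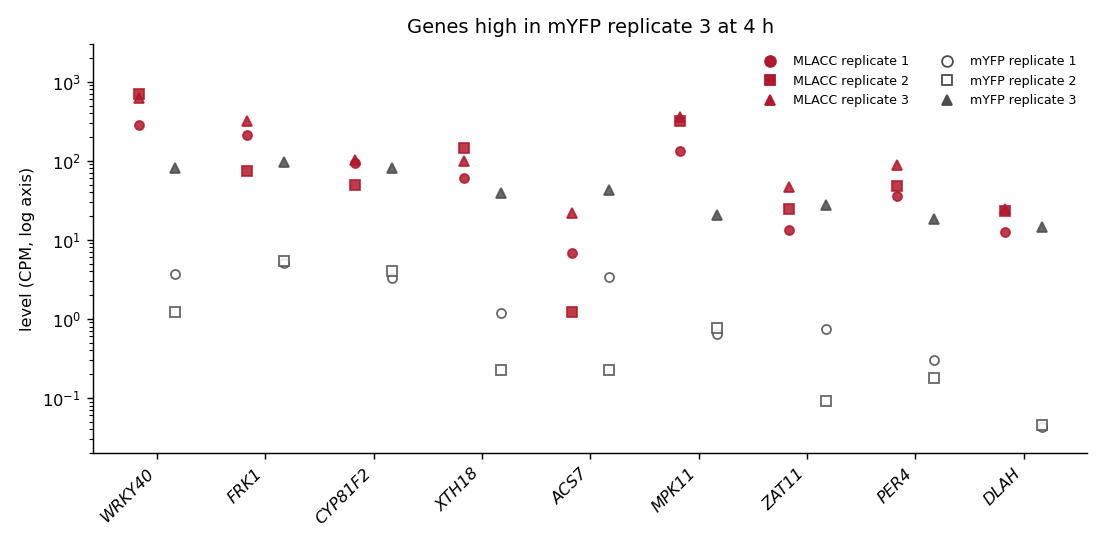
Levels (CPM, log axis) of genes that were high in mYFP replicate 3 at 4 h, with MLACC libraries in red to the left and mYFP libraries in grey, where the filled triangle is mYFP replicate 3 and open symbols are mYFP replicates 1 and 2. For FRK1 and CYP81F2 the filled triangle lies within the range of the MLACC libraries, whereas the open symbols lie below 6 CPM.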

How the data were processed

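RNA was extracted from infiltrated leaves and sequenced as unstranded poly(A) libraries, so that a gene cannot be told apart from an overlapping or antisense gene. Per the submitters' notes and the study's methods, the authors checked reads with FastQC 0.11.2, aligned them to TAIR10 with TopHat2 2.0.10 and deposited whole-number read counts per gene from HTSeq (version not given in the sources used here). Reads mapping to several places were left out, so that values of near-identical genes are uncertain. A second table with the other 30 libraries was not used here.

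From the deposited counts, edgeR 4.0.16 (R 4.3.3) was fitted to all 30 wild-type libraries (filterByExpr, TMM scaling, 1 mean per line and time, quasi-likelihood F test, Benjamini-Hochberg adjustment over 19654 genes). Differences between effects at 4 h and at 2 h or 6 h were contrasts of the same fit. SE is the log2FC divided by the square root of F. Genes without counts in a group were compared with a floor of 3 counts over that group. All replicate pairs at 4 h differed by more than sampling noise. An exact permutation test of 3 against 3 libraries cannot go below p = 0.1 and was not used. The p-values rest on the spread between biological replicates, pooled over the 10 groups of the 30 libraries. DESeq2 1.42.0, other scalings and filters, the 6 libraries alone, a replicate block, subtraction of the 0 h difference and omission of each library were tried as alternatives. The fit was also run on simulated counts in which few genes changed, all genes had the same dispersion and no replicate stood apart. Those settings differ from these data, so that run does not show how the fit behaves here.

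Members and the 49 lists were chosen with earlier results of these data known. Named genes were the 15 highest and 15 lowest log2FC among called genes that did not overlap and reached 5 CPM, list members by smallest p or highest level, the extremes of each time difference and of MLACC replicate 1, and the most abundant genes. Gene names and promoters came from RefSeq (TAIR10.1).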

Additional observations from a re-analysis of the deposited data

Results flagged for a closer look

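The effect of MLACC differed between times by the test of the difference itself. It was higher at 4 h than at 2 h in 1396 genes and lower in 409. Among the higher ones, UGT76B1 stood at 9.73, CYP71A13 at 8.92 and AT2G28210, an alpha carbonic anhydrase gene, at 9.61. Among genes with a lower effect at 4 h than at 2 h were AT1G67750 (-5.04), ERL2 (-3.29), AT3G06130 (-3.06) and AT1G75640 (-3.13). Higher and lower are meant on the signed log2FC scale, and AT1G67750 and ERL2 fell further at 4 h than at 2 h. Compared with 6 h, the effect at 4 h was higher in 50 genes and lower in 29. The higher ones included 4CL2 (2.52), AT1G76610 (4.76), LBD11 (4.38) and AT3G23470 (4.26), the last of which had a log2FC of -1.07 at 4 h and -5.33 at 6 h. The lower ones included AT5G07340 (-2.24), RLP43 (-6.15), XTH10 (-2.98) and NAC047 (-2.98). RLP43, a receptor-like protein gene, had a log2FC of 1.55 at 4 h, where it was not called, and 7.69 at 6 h. Without mYFP replicate 3 at 4 h it was called at 4 h (3.68, edgeR FDR 0.000583), and its difference from 6 h was -4.03 and no longer called (edgeR FDR 0.103). Of the other libraries at 4 h and 6 h, leaving out MLACC replicate 2 at 4 h or any one at 6 h also ended that call.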

How the results depend on the processing

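The number of genes that fell depended on the processing more than the number that rose. With 1 library left out in turn, 3742 to 4642 genes rose and 2302 to 4341 fell, the lowest count of falls being without MLACC replicate 3 and the highest without MLACC replicate 1. With only the 6 libraries compared, 786 genes fell, and with the 0 h difference between the lines subtracted, 1618 fell. For the difference from 2 h, leaving out 1 library gave 777 to 2281 genes with a higher and 105 to 2767 with a lower effect at 4 h, the libraries of the groups compared alone gave 201 and 32, and DESeq2 gave 869 with a lower effect. For the difference from 6 h, the corresponding ranges were 7 to 304 and 8 to 715, and DESeq2 gave 164 and 124. With the libraries of the groups compared alone no gene was called in edgeR for that difference, where 1415 genes had a higher and 1458 a lower effect at an unadjusted p below 0.05. With the replicate block, 4198 genes rose and 3517 fell, 1406 and 496 differed from 2 h, and 52 and 32 from 6 h. The numbers were not taken as pairs, since same-numbered libraries at 4 h deviated together with correlations of 0.11, 0.0763 and 0.283. Each MLACC library at 4 h correlated best with the mYFP library of its own number, which is a hint from the data and not from the design. This did not hold throughout at the other times compared. At 2 h MLACC replicate 1 correlated best with mYFP replicate 2 (0.441, own number 0.369). MLACC replicate 2 correlated best with mYFP replicate 3 at 2 h (0.203, own number -0.182) and with mYFP replicate 1 at 6 h (0.161, own number 0.0269). The other MLACC libraries at 2 h and 6 h correlated best with their own number. Under upper-quartile scaling 3179 genes rose and 5166 fell. The 5.8S rRNA AT3G41979 turned round with the 0 h difference subtracted, from -3.52 to 0.12 (adjusted p 0.897, edgeR). Of the 550 named genes called in the main fit, 222 lost their calls with the 0 h subtraction, 205 with the compared libraries alone and 6 with the block. The causes of these changes were not tested. Depth limited genes with few counts. Those with no or at most 3 counts in a group are given as bounds or as ratios with counting intervals, and fitted values of genes with a few more, such as BAP2 and ERF1 with 5 and 6 counts in mYFP leaves, rest on those counts.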

Other observations

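Several further families were measured. Of 36 cysteine-rich receptor-like kinases, many of which are induced by pathogens, 23 rose and 1 fell (median log2FC 2.13). The gene that fell, CRK21, lost its call without MLACC replicate 2, MLACC replicate 3 or mYFP replicate 1, and 3 fell without MLACC replicate 1. Of 21 PUB ubiquitin ligases, 10 rose and the other 11 did not pass the test (median log2FC 1.58). PUB54 had 256, 449 and 457 CPM in MLACC leaves and 1.52, 0.904 and 4.72 CPM in mYFP leaves (log2FC 7.34 ± 0.61 SE, 8.26 without mYFP replicate 3). PUB13, which ubiquitinates FLS2, had 151, 243 and 244 CPM in MLACC leaves and 54.9, 50.3 and 53.6 CPM in mYFP leaves (log2FC 2.00 ± 0.20 SE). Of 51 UGT glycosyltransferases, which attach sugars to hormones and defence compounds, 22 rose and 8 fell (median log2FC 0.89), and 5 fell without MLACC replicate 2 or MLACC replicate 3. The share that rose was 43.1%, against 21.4% over all genes tested, and the share that fell, 15.7%, was near the 17.6% over all genes. UGT84A2 had 52.4, 151 and 175 CPM in MLACC leaves and 9.16, 7.14 and 4.33 CPM in mYFP leaves (log2FC 4.2).

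Of 7 ATG8 genes, which mark autophagosomes, 1 rose and 1 fell (median log2FC 0.05), smaller shares than the 21.4% and 17.6% over all genes. ATG8H had 19.5, 33.0 and 39.2 CPM in MLACC leaves and 7.38, 5.70 and 8.02 CPM in mYFP leaves (log2FC 2.12 ± 0.24 SE). ATG8F had 51.4, 19.7 and 30.8 CPM in MLACC leaves and 82.5, 72.0 and 104 CPM in mYFP leaves (log2FC -1.34 ± 0.24 SE). Of 17 Aux/IAA genes, repressors of auxin responses, 4 rose and 5 fell (median log2FC -0.76). With all libraries the share that rose was near the 21.4% over all genes, and the share that fell was above 17.6%. The number that rose was 2 without MLACC replicate 2 or mYFP replicate 3, and the number that fell was 8 without MLACC replicate 1 and 3 without MLACC replicate 2 or MLACC replicate 3. Of 10 heat shock factors, 5 rose and 1 fell (median log2FC 1.23), and the one that fell lost its call without MLACC replicate 3. HSFA2, a factor of the heat response, had 55.1, 124 and 87.1 CPM in MLACC leaves and 9.03, 15.5 and 2.69 CPM in mYFP leaves (log2FC 3.29 ± 0.66 SE, 3.88 without mYFP replicate 2).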
